A study of Rattus norvegicus with 6 samples.

Results

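Messenger RNA was measured for 10 rat genes that encode enzymes removing superoxide and hydrogen peroxide. They are 3 superoxide dismutases (Sod1, Sod2, Sod3), catalase (Cat), 3 glutathione peroxidases (Gpx1, Gpx3, Gpx4) and 3 peroxiredoxins (Prdx1, Prdx3, Prdx5). The members were taken by name: every row of the deposited mRNA table whose RefSeq transcript belongs to one of these genes was used. This gave 11 rows for 10 genes, out of 20734 rows for 20032 genes, and Gpx4 had a row for each of 2 transcripts. This rule used no measured value, but the members and the related lists were chosen with earlier results of these data known.

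The cells were ventricular cardiomyocytes, the contracting muscle cells of the lower heart chambers, isolated from newborn Sprague-Dawley rats 1 to 3 days old. Before plating, the cell suspension was held in an uncoated flask to which fibroblasts adhere, and the myocytes were later kept in serum-free medium. In the isoproterenol group, 3 cultures received 10 µM isoproterenol, a beta-adrenergic agonist widely used to induce hypertrophy of cultured cardiomyocytes, for 24 h. The 3 control cultures were left untreated. The labels state no genetic change in either group. Although the labels also speak of passages and of transfection, the stated protocol describes freshly isolated cells and no transfection. No label ties a replicate to a litter or an isolation, so p-values measure only the spread between these 6 samples, which may be partly technical.

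Superoxide, a by-product of mitochondrial respiration and a product of NADPH oxidases, is converted by superoxide dismutases to oxygen and hydrogen peroxide. Hydrogen peroxide is then split by catalase inside peroxisomes, or reduced to water by the glutathione peroxidases at the cost of glutathione and by the peroxiredoxins at the cost of thioredoxin. The family is spread over compartments: SOD1 in the cytosol, SOD2 and PRDX3 in the mitochondrial matrix, and SOD3 and GPX3 outside the cell. The heart, with its dense mitochondria, relies on this system continuously.

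The 6 arrays had 2 scan times, and arrays that shared a scan time were taken to share a slide. This division, inferred from the scan times alone, touches every result. Slide 1 held all 3 controls and isoproterenol replicate 1, and slide 2 held isoproterenol replicates 2 and 3. The 75th percentile of the signal lay between 547 and 599 on slide 1 and was 207 and 249 on slide 2. Negative-control spots had a median of 27 to 30 on slide 1 against 87 and 84 on slide 2. Between 97.5% and 99.7% of the mRNA rows were well above background on the slide 1 arrays, against 61.0% and 70.6% on slide 2. Levels are therefore given for each array on a log2 scale relative to that array's 75th percentile, so 0 is the 75th percentile and 1 is a doubling of signal. Each change of a member is also given within slide 1, where a lone isoproterenol array is set against 3 controls. Slide 2 held no control, so a fit with the slide as a block takes its change from that same lone array. In that fit slide 2 adds only to the estimate of spread. A call kept or lost there is therefore no separate check on all 6 arrays. All 11 member rows were well above background on all 6 arrays.

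The promoters of the 4 members on which the results turn are shown, since Gpx1 and Gpx3 passed the threshold downward, Cat passed it only under some scalings, and Prdx1 was the member with the largest difference upward, short of the threshold. Each is the stretch of 250 bases before the annotated transcription start from RefSeq on GRCr8, 5′ to 3′ on the gene's own strand. Capitals mark matches to the motifs described after the sequences. They lie at chr3:110329527-110329776 on the minus strand (Cat), chr5:135383656-135383905 on the plus strand (Prdx1), chr8:117905212-117905461 on the plus strand (Gpx1) and chr10:39529085-39529334 on the plus strand (Gpx3).
Cat: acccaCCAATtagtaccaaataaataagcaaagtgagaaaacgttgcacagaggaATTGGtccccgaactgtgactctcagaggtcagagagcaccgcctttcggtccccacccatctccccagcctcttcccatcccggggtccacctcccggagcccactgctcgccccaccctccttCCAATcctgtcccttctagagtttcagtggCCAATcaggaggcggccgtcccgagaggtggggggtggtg
Prdx1: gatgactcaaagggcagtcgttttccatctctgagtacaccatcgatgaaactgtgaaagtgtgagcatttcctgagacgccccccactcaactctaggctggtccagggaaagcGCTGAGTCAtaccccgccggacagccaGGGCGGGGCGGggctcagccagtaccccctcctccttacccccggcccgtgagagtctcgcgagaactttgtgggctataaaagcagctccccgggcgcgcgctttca
Gpx1: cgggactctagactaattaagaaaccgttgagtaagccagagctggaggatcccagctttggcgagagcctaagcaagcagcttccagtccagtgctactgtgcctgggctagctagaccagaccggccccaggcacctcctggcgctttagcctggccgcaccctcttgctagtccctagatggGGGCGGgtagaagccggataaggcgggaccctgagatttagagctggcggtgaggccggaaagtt
Gpx3: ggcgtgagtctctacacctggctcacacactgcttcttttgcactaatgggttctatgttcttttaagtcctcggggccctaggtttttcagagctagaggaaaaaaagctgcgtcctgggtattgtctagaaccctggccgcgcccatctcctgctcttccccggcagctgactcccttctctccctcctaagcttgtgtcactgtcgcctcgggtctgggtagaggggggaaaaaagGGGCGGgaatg

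Motifs were searched on both strands over windows from 250 bases before to 50 bases after the start, in 33469 rat promoters. Of the 10 genes, 9 are in that promoter table, and Sod3 was not among them. The antioxidant response element core, TGACNNNGC, which NRF2 is known to bind, was in 12.1% of all promoters and in 3 of the 9 members, Sod2, Prdx1 and Prdx5. In Prdx1 it reads GCTGAGTCA on the printed strand and begins at position -135 relative to the start. The cAMP response element, TGACGTCA, was in 1.83% of promoters and in 0 of the 9. The GC box, GGGCGG, was in 33.1% of promoters and in 8 of the 9, all but Cat. The CCAAT box, CCAAT, was in 37.5% of promoters and in 4 of the 9, Sod1, Cat, Gpx3 and Gpx4. Cat had 5 matches to it, of which 4 lie in the stretch printed, whereas the match in Gpx3 lies after the start. The GC and CCAAT boxes were added after the levels were seen. Gpx4 has 3 windows in the table, some of which overlap. A match describes letters in the window and is no sign of binding.

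With isoproterenol, Gpx1 and Gpx3 fell, with levels 1.80-fold and 1.78-fold higher in the controls, and no member rose past the threshold. Prdx1 was higher in all 3 isoproterenol samples than in any control without passing it, and catalase was lower relative to the other bright members. The call rule was an adjusted p under 0.05 from limma with Benjamini-Hochberg adjustment over all 20032 genes. By this rule 2 of 10 members were called, both lower, where 15.8% of all genes were called, 9.97% higher and 5.82% lower. The groups did not overlap in 3 members, Prdx1 upward and Gpx1 and Gpx3 downward, where 41.4% of all genes had groups that did not overlap. That share is 25.6% upward and 15.8% downward. The median change of the 10 members was 0.04 on the log2 scale, against 0.07 over all genes. These counts are close to those of genes at large, so the results lie in single members. Within slide 1 no member passed the threshold, where 5.01% of genes did, and with the slide as a block none passed, where 7.07% did. In RNA from a whole culture, fewer cells of a type and less RNA per cell cannot be told apart.

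**Figure D1:**
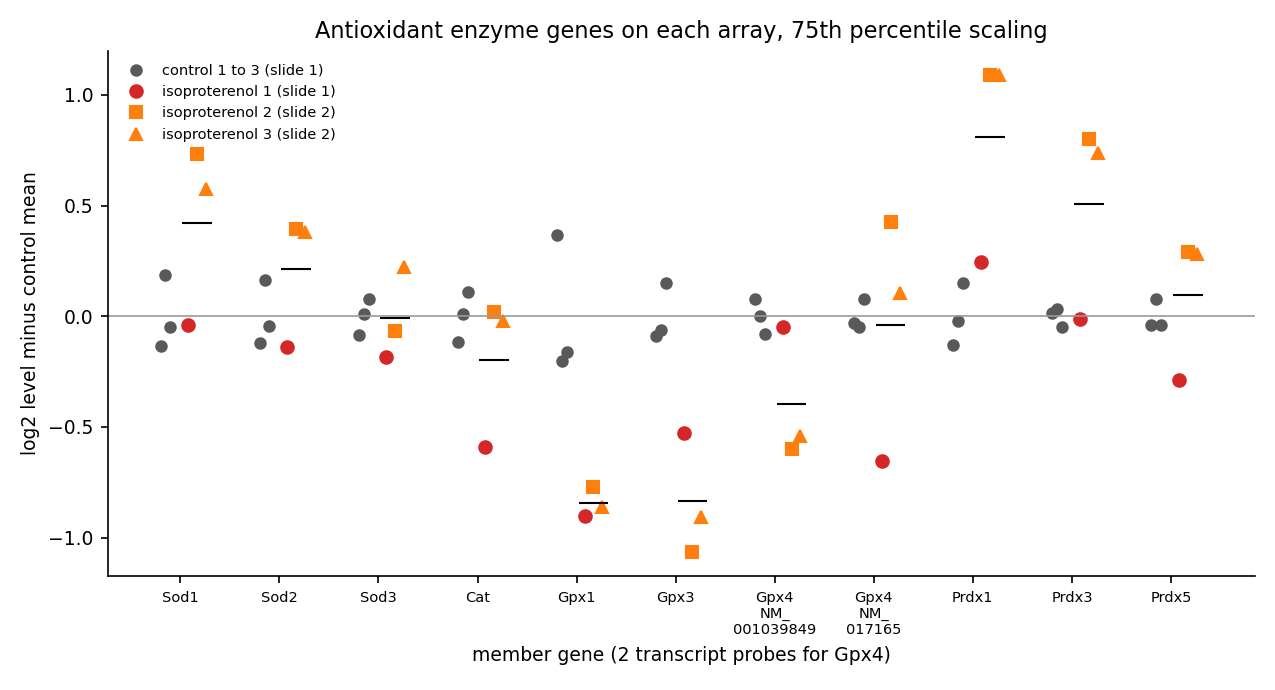
Level of each of the 11 member rows on each array minus the control mean of that row, on the log2 scale; points are 3 control samples, isoproterenol replicate 1 (slide 1) and replicates 2 and 3 (slide 2), and bars are isoproterenol means. Gpx1 and Gpx3 lie lower in all 3 isoproterenol samples than in any control, Prdx1 lies higher, and in 9 of 10 genes replicate 1 lies below both slide 2 replicates.

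Among the superoxide dismutases no change passed the threshold. Sod1 (NM_017050), the cytosolic copper-zinc enzyme, had levels of 5.42, 5.74 and 5.50 in the controls and 5.51, 6.28 and 6.13 in isoproterenol replicates 1 to 3. The slide 2 replicates were the highest and replicate 1 lay among the controls. The change was 0.42 ± 0.24 (SE), from 5.55 ± 0.17 to 5.97 ± 0.41 (SD, n = 3 each), with an adjusted p of 0.25 by limma, and it was -0.04 within slide 1.

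Sod2 (NM_017051), the manganese enzyme of the mitochondrial matrix, had 3.08, 3.36 and 3.15 in the controls and 3.06, 3.59 and 3.58 with isoproterenol. The slide 2 replicates were again the highest, replicate 1 was the lowest of the 6 samples, and the groups overlapped. Its change was 0.21 ± 0.21 (limma adjusted p = 0.488), and within slide 1 it was -0.14. Sod3 (NM_012880), the secreted enzyme that binds the extracellular matrix, had 3.05, 3.14 and 3.21 in the controls and 2.95, 3.07 and 3.36 with isoproterenol. The groups overlapped, and the change was -0.01 ± 0.18 (limma adjusted p = 0.977), and -0.18 within slide 1.

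The deposited values, which the authors had normalized themselves, placed Sod3 differently. There it read 11.91, 11.95 and 12.04 in the controls and 11.68, 11.59 and 11.89 with isoproterenol. All 3 isoproterenol samples were below the controls, by -0.25 on average, without passing the threshold (limma adjusted p = 0.27). In those values 4 of 10 members had groups that did not overlap, Sod3, Cat, Gpx1 and Gpx3, all lower, where 41.1% of all genes had such groups, 19.8% lower.

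Catalase (NM_012520), the haem enzyme of peroxisomes, gave a result that depended on how the arrays were scaled. Relative to the 75th percentile it had 6.17, 6.30 and 6.40 in the controls and 5.70, 6.31 and 6.27 with isoproterenol. Replicate 1 was well below all controls and the slide 2 replicates were among them. The change was -0.20 ± 0.22 (limma adjusted p = 0.532), and within slide 1 it was -0.59 (adjusted p = 0.108). In the deposited values catalase read 15.08, 15.28 and 15.34 in the controls and 14.49, 14.65 and 14.63 with isoproterenol. There all 3 isoproterenol samples were lower, and the change of -0.64 ± 0.15 passed the threshold (limma adjusted p = 0.0401), where 14.5% of all genes did, 6.49% downward. Quantile normalization gave -0.64 (adjusted p = 0.0413, where 13.4% of genes were called). For every member its change was almost equal to that in the deposited values, so these are not separate scalings. Cyclic loess, added after the data were seen, gave -0.70 ± 0.15 (adjusted p = 0.0256, where 16.2% were called). With the slide as a block, the deposited values gave -0.74 and the call was lost (adjusted p = 0.0658, where 6.32% were called).

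Ratios within an array do not depend on its scaling factor, and catalase was set against the 3 other members among the brightest genes, the top of 10 equal groups by mean level. Catalase over Prdx1 had a log2 ratio of 0.10, 0.12 and 0.05 in the controls and -0.75, -0.99 and -1.03 with isoproterenol. The groups were far apart relative to their spread, and the ratio was 2.01-fold lower with isoproterenol. Replicate 1, on the slide of the controls, was 0.84 below the control mean.

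Catalase over Sod1 had log2 ratios of 0.76, 0.56 and 0.90 in the controls and 0.19, 0.03 and 0.14 with isoproterenol, a 1.54-fold lower ratio. Catalase over Prdx3 had 0.37, 0.48 and 0.66 against -0.07, -0.28 and -0.25, a 1.63-fold lower ratio. In all 3 ratios every isoproterenol sample was below every control. Each had a two-sided exact permutation p of 0.1, the smallest that 3 against 3 samples can give, and 6 such ratios were computed. The ratios were not among the planned results. Catalase and Prdx1 had the lowest and highest changes of these bright members, which favours groups that do not overlap. A lower ratio shows unequal change and not which gene moved. The ratio of catalase to each other gene was lower without overlap for 36.3% of all genes and for 70.9% of the genes in the brightest group.

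**Figure D2:**
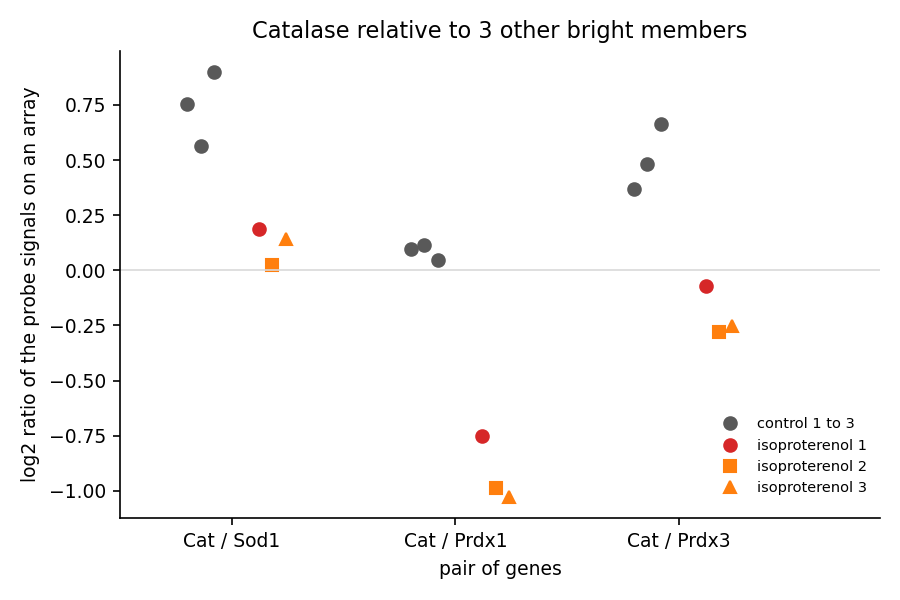
Log2 ratios of catalase to Sod1, Prdx1 and Prdx3 within each array, 1 point a sample, for 3 control and 3 isoproterenol samples. All 3 ratios lie lower in every isoproterenol sample, on either slide, and the ratio to Prdx1 goes from between 0.05 and 0.12 to between -1.03 and -0.75.

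Both called members are glutathione peroxidases, selenoproteins that use glutathione. Gpx1 (NM_030826), the cytosolic and mitochondrial enzyme, had 1.88, 1.31 and 1.35 in the controls and 0.61, 0.74 and 0.65 with isoproterenol. All 3 isoproterenol samples were lower and close together, while control 1 stood above the other controls. The level fell by 0.84 ± 0.21 on the log2 scale, from 1.51 ± 0.32 to 0.66 ± 0.07 (SD, n = 3 each), and was 1.80-fold higher in the controls (limma adjusted p = 0.0383).

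The difference in Gpx1 was about as large on each slide, -0.90 within slide 1 and -0.82 for the slide 2 replicates against the controls. Within slide 1 the adjusted p was 0.132, and with the slide as a block it was 0.104. In the deposited values the change was -0.94 (limma adjusted p = 0.0347). Median scaling gave -0.78 without the call (adjusted p = 0.0641), where 11.9% of genes were called. Over all alternatives the change ran from -1.08 to -0.66.

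Gpx3 (NM_022525), the secreted plasma enzyme, had -0.50, -0.47 and -0.26 in the controls and -0.94, -1.48 and -1.32 with isoproterenol. All 3 isoproterenol samples were lower, those of slide 2 the furthest. The background-subtracted signal of Gpx3 was only 74.4 and 100 on slide 2, against 387, 420 and 461 in the controls. After normexp background correction its slide 2 levels were -0.90 and -0.86, close to -0.80 in replicate 1. The level fell by 0.83 ± 0.20, from -0.41 ± 0.13 to -1.24 ± 0.28, and was 1.78-fold higher in the controls (limma adjusted p = 0.0371). The difference was -0.53 within slide 1 (adjusted p = 0.139) and -0.99 for slide 2 against the controls, with an adjusted p of 0.137 with the slide as a block. The deposited values gave -0.79 (limma adjusted p = 0.033), and normexp background correction gave -0.54 without the call (adjusted p = 0.0559), where 14.0% of genes were called.

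Gpx4, which reduces lipid hydroperoxides in membranes and so protects cells from ferroptosis, has 2 transcript rows that disagreed. NM_017165, the row that stands for the gene by the brightest-probe rule, had -1.13, -1.15 and -1.02 in the controls and -1.75, -0.67 and -0.99 with isoproterenol. Replicate 1 was the lowest sample and the slide 2 replicates were the highest, giving a change of -0.04 ± 0.29 (limma adjusted p = 0.931). NM_001039849 had -0.97, -1.04 and -1.12 in the controls and -1.09, -1.65 and -1.59 with isoproterenol. Here the slide 2 replicates were low and replicate 1 lay among the controls, with a change of -0.40 ± 0.20 (adjusted p = 0.204). Within slide 1 the changes were -0.65 and -0.05 in the same order. For slide 2 against the controls they were 0.27 and -0.57, so the rows differed in sign only there. Both rows were dim on slide 2, with signals of 130 and 125 in the first and 66.2 and 83.1 in the second. After normexp background correction the second row read -0.96 and -1.07 on slide 2, against -0.83, -0.89 and -0.91 in the controls. The first read -0.40 and -0.79 on slide 2, against -0.93, -0.96 and -1.04. Neither row passed the threshold. The sign of the row that stands for the gene also changed with the scaling, so no direction is given for Gpx4.

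The peroxiredoxins, which use thioredoxin, included the only member that lay higher in every isoproterenol sample. Prdx1 (NM_057114), a cytosolic and nuclear enzyme, had 6.08, 6.18 and 6.36 in the controls and 6.45, 7.30 and 7.29 with isoproterenol. Replicate 1 was just above the highest control and the slide 2 replicates were far above it. The change was 0.81 ± 0.27, from 6.21 ± 0.14 to 7.01 ± 0.49 or 1.75-fold, and did not pass the threshold (limma adjusted p = 0.0827).

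Most of the Prdx1 difference came from slide 2, at 1.09, with 0.25 within slide 1 (adjusted p = 0.395). In the deposited values Prdx1 read 14.99, 15.14 and 15.28 in the controls and 15.21, 15.61 and 15.66 with isoproterenol. There replicate 1 lay among the controls, and the change was 0.35 (limma adjusted p = 0.217). Prdx1 was called among the 12316 genes detected on all 6 arrays (adjusted p = 0.0409), where 34.5% of genes were called.

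Prdx3 (NM_022540), the mitochondrial matrix enzyme, had 5.80, 5.82 and 5.74 in the controls and 5.77, 6.59 and 6.52 with isoproterenol. Replicate 1 lay among the controls and both slide 2 replicates were high. The change was 0.51 ± 0.25 (limma adjusted p = 0.19), -0.01 within slide 1 and 0.09 in the deposited values. Prdx5 (NM_053610), found in mitochondria, peroxisomes and cytosol, had 0.52, 0.64 and 0.52 in the controls and 0.27, 0.85 and 0.84 with isoproterenol. Replicate 1 was the lowest and slide 2 the highest, with a change of 0.10 ± 0.21 (limma adjusted p = 0.765) and of -0.29 within slide 1.

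Ratios among these bright members moved less than those with catalase. The ratio of Prdx1 to Sod1 was higher by 0.39 on the log2 scale and that of Prdx1 to Prdx3 by 0.30, without overlap in either (exact permutation p = 0.1, two-sided). The ratio of Prdx3 to Sod1 differed by 0.09, with overlapping groups (exact permutation p = 0.4). The ratio of Prdx1 to each other gene was higher without overlap for 41.3% of all genes and for 33.2% of the brightest group.

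The pattern by slide was shared by most members. Both slide 2 replicates were above isoproterenol replicate 1 in 9 of 10 members, all but Gpx3, against 47.9% of all genes. Over all genes the difference between slide 2 and replicate 1 followed brightness. Its median was -0.40 in the second of 10 groups by mean level, 0.05 in the sixth and 0.62 in the brightest. No member lies below the sixth group, so the share over all genes is not a comparison at like brightness. Within slide 1, replicate 1 was below all 3 controls in 7 of 10 members, Sod2, Sod3, Cat, Gpx1, Gpx3, Gpx4 and Prdx5. Over all genes that share was 29.7%. Prdx1 was the 1 member above all 3 controls, against 45.6% of all genes. The same sample also decided counts: without isoproterenol replicate 1, 5 members were called, Sod1, Prdx1 and Prdx3 higher and Gpx1 and Gpx3 lower, where 51.7% of genes were called. Without control 1, 2 or 3, 0 members were called, where 7.11%, 2.28% and 1.54% of genes were. Without isoproterenol replicate 2 or 3 it was also 0, where 6.13% and 3.82% of genes were called. Leaving out any of these 5 arrays thus ended the calls of Gpx1 and Gpx3.

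**Figure D3:**
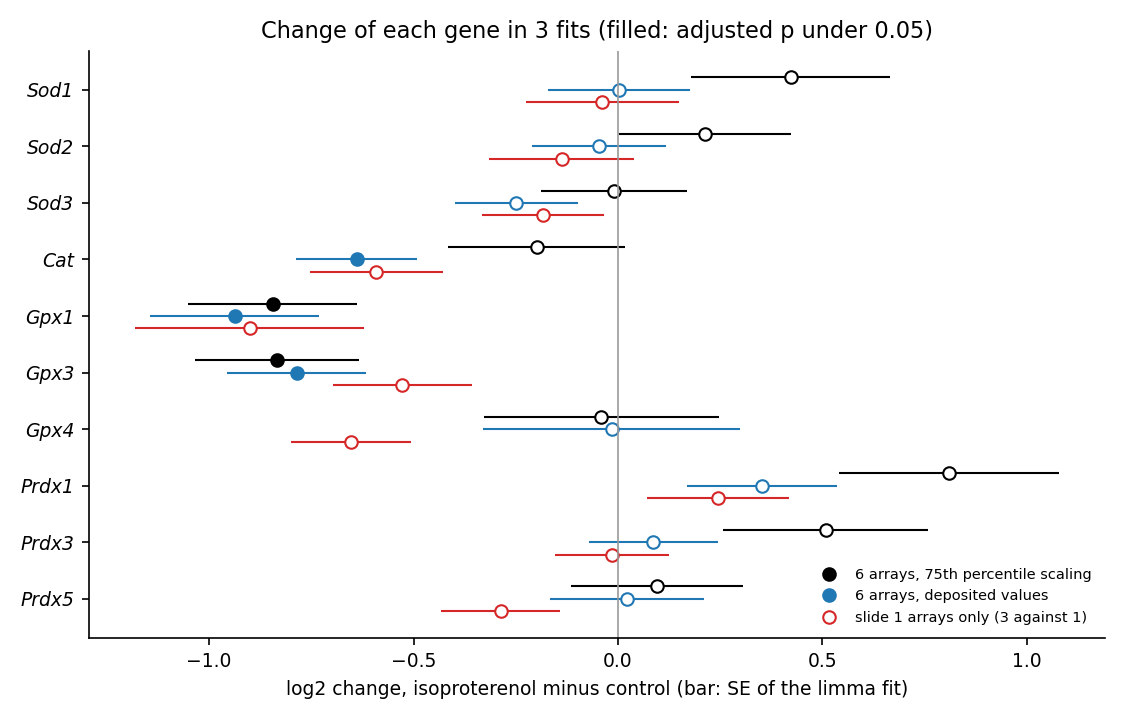
Log2 change of each gene with isoproterenol, with its standard error as a bar, in 3 limma fits: 6 arrays scaled to the 75th percentile, 6 arrays with the deposited values, and slide 1 alone; filled points passed the threshold. Gpx1 and Gpx3 lie below 0 in all 3, catalase lies at -0.20, -0.64 and -0.59, and Prdx3 lies at 0.51, 0.09 and -0.01.

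The change of a gene also moved with its brightness. With all genes sorted into 10 equal groups by mean level, the median change with isoproterenol was -0.02 in the sixth group, 0.16 in the eighth, 0.31 in the ninth and 0.50 in the brightest. Within slide 1 the brightest group had a median change of 0.18, and in the deposited values 0.06. Sod1, Cat, Prdx1 and Prdx3 lie in that group, Sod2 and Sod3 in the ninth, Gpx1 in the eighth, Prdx5 in the seventh and Gpx3 and Gpx4 in the sixth.

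Set against the median of its own brightness group, Gpx1 differed by -1.01, Gpx3 by -0.81 and Cat by -0.70. Within slide 1 these differences were -0.95, -0.57 and -0.77, and in the deposited values -0.98, -0.80 and -0.70. Catalase stood lower than genes of like brightness in each of these comparisons. The deposited values keep the order of the signals on each array. Agreement between the 2 scales was therefore close to fixed in advance and adds no separate evidence. Prdx1 stood 0.31 above its group's median, 0.29 in the deposited values and 0.07 within slide 1. Sod1 (-0.08), Sod2 (-0.10), Gpx4 (-0.02), Prdx3 (0.01) and Prdx5 (0.01) were near the median of theirs, and Sod3 was at -0.32. What part brightness, background and slide have in each change was not tested beyond these values.

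**Figure D4:**
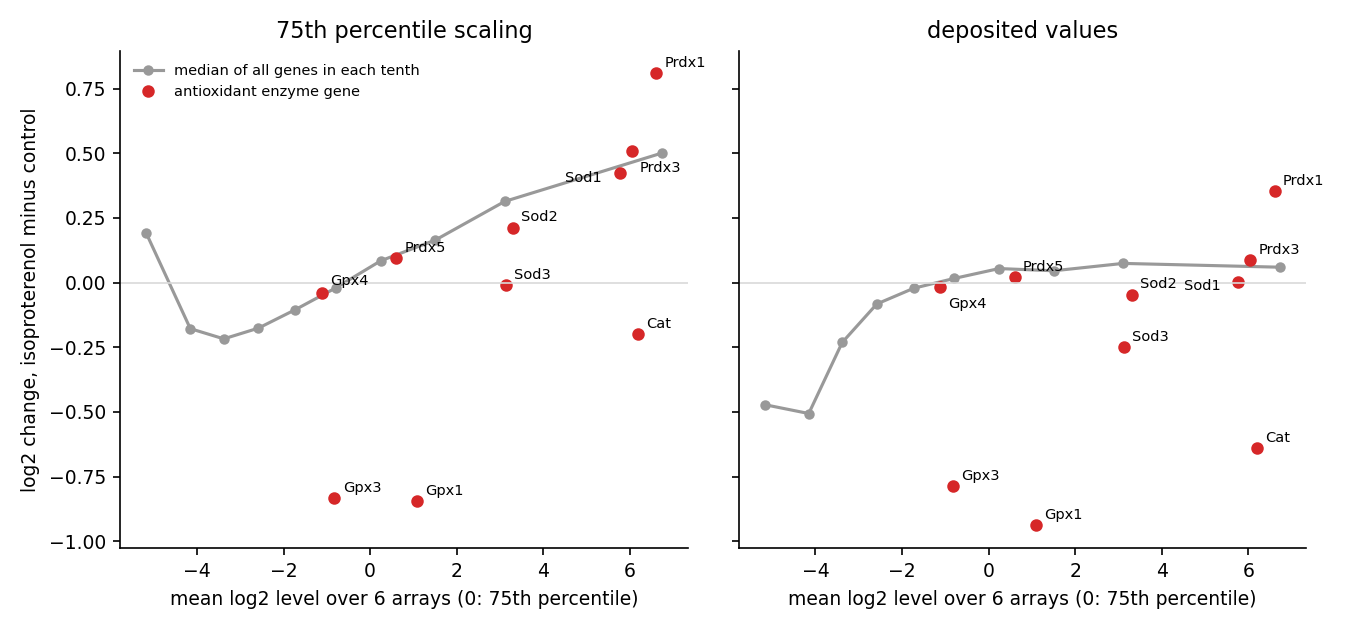
Median log2 change with isoproterenol of all genes in each of 10 equal groups by mean level (grey line) and the change of the 10 members at their own level (red), for arrays scaled to the 75th percentile (left) and the deposited values (right). On the left the grey line reaches 0.50 in the brightest group, on the right 0.06, and Cat, Gpx1 and Gpx3 lie 0.70 to 1.01 below the median of their group in both panels.

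Genes of related pathways were counted by the same rule, under which 9.97% of all genes were higher and 5.82% lower. These shares are the comparison for every list and marker count below. Other peroxidases and their helpers went in both directions. Of 14 of 17 listed genes tested, 3 rose and 2 fell, and their median change was 0.25 (0.12 within slide 1). Gpx8, a glutathione peroxidase of the endoplasmic reticulum, rose by 1.58 ± 0.25 on the log2 scale (limma adjusted p = 0.0115, and 0.0259 with the slide as a block). Mgst2, a microsomal glutathione transferase, rose by 1.52 ± 0.17 (adjusted p = 0.00493) while its relative Mgst3 fell by 1.81 ± 0.25 (adjusted p = 0.00844). With the slide as a block, where the change rests on isoproterenol replicate 1 alone, it was 1.43 for Mgst2 and -2.19 for Mgst3.

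Prdx6, the peroxiredoxin that uses glutathione, rose by 0.81 ± 0.17 (limma adjusted p = 0.0257) and Mgst1 fell by 1.08 ± 0.21 (adjusted p = 0.0206), and both lost the call with the slide as a block. Ccs, the copper chaperone of SOD1, changed by 0.59 ± 0.30 (limma adjusted p = 0.198) with -0.06 within slide 1. Prdx2 changed by -0.62 ± 0.22 (adjusted p = 0.0966), Prdx4 by 0.52 ± 0.19 (adjusted p = 0.0989) and Gpx7 by -0.15 ± 0.21 (adjusted p = 0.612), none past the threshold. Gpx6, Srxn1 and Sesn1 were not matched to a row.

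Beside shares of 9.97% higher and 5.82% lower over all genes, 3 of 14 supply genes were higher and none lower. These genes supply reduced thioredoxin and glutathione, on which both peroxidase families draw. Their median change was 0.51, and -0.05 within slide 1. Slc7a11, the cystine importer, rose by 2.60 ± 0.25 on the log2 scale (limma adjusted p = 0.00365), Txnrd1, cytosolic thioredoxin reductase, by 1.48 ± 0.26 (adjusted p = 0.0145) and Txn1, thioredoxin, by 1.04 ± 0.25 (adjusted p = 0.0372). With the slide as a block Slc7a11 passed (2.10, adjusted p = 0.0155), Txnrd1 was at the threshold (0.99, adjusted p = 0.0487) and Txn1 did not pass (0.54, adjusted p = 0.128). Txnrd1 did not pass on slide 1 alone (adjusted p = 0.0705). Txnip, which binds and inhibits thioredoxin, changed by -0.85 ± 0.27 (adjusted p = 0.0765).

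GPX1, GPX3 and GPX4 need selenium, and of 14 genes of selenium supply and selenoprotein synthesis 1 rose and 2 fell, with a median change of 0.28. Selenop, the selenium carrier of plasma, fell by 1.23 ± 0.20 (limma adjusted p = 0.0129), and Selenow fell by 1.11 ± 0.19 (adjusted p = 0.0148). With the slide as a block Selenop kept its call (adjusted p = 0.0331) and Selenow did not (adjusted p = 0.0636), nor after normexp background correction (-0.52, adjusted p = 0.0855). Selenop was well above background on only 1 of the 3 isoproterenol arrays, and after that correction its change was 0.20 (adjusted p = 0.551). Txnrd1, itself a selenoprotein, was the gene that rose.

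Of 11 regulators tested, 2 rose and 2 fell, with a median change of -0.04. Ppargc1a, a coactivator of mitochondrial and peroxisomal genes, had 0.03, 0.24 and 0.31 in the controls and -1.97, -1.71 and -1.64 with isoproterenol. The groups were far apart, and the level fell by 1.97 ± 0.18 (limma adjusted p = 0.00311; 0.0134 with the slide as a block). Ppara, a lipid-sensing nuclear receptor, fell by 0.75 ± 0.16 (adjusted p = 0.0276). Nqo1 rose by 1.35 ± 0.21 (adjusted p = 0.0105) and Hmox1, haem oxygenase 1, by 0.88 ± 0.18 (adjusted p = 0.0214), both known targets of NRF2. Nfe2l2, which encodes NRF2, changed by -0.04 ± 0.17 (adjusted p = 0.894) and Keap1, its inhibitor, by -0.47 ± 0.18 (adjusted p = 0.113). With the slide as a block Nqo1 and Ppargc1a kept their calls, while Ppara (adjusted p = 0.0768) and Hmox1 (adjusted p = 0.0719) lost theirs. After normexp background correction Ppara changed by -0.31 (adjusted p = 0.156).

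Catalase is imported into peroxisomes, and of 13 peroxisome biogenesis genes 1 rose and 1 fell, with a median change of -0.14. Pex11a, which acts in peroxisome division, fell by 1.99 ± 0.25 on the log2 scale (limma adjusted p = 0.00693; 0.033 with the slide as a block). Pex26 rose by 1.19 ± 0.24 (adjusted p = 0.0226; 0.118 with the slide as a block).

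**Figure D5:**
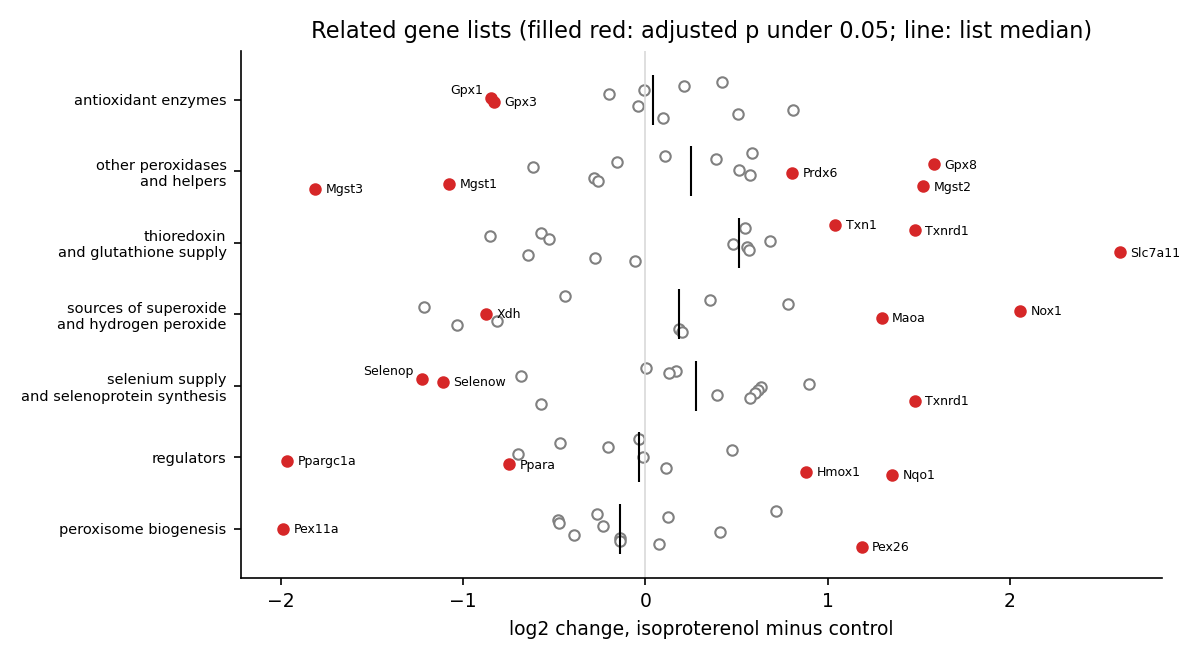
Log2 change with isoproterenol of each gene tested among the 10 members and in the 6 related lists, 1 point a gene, with the list median as a line and genes past the threshold in red. Slc7a11 at 2.60 is the highest of the supply genes and Pex11a at -1.99 the lowest of the peroxisome genes.

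Markers of cell types were read beside these results, by the rule under which 9.97% of all genes were higher and 5.82% lower. All 9 cardiomyocyte markers tested were well above background on all control arrays. Their summed level, relative to the 75th percentile on a linear scale, ran from 1911 to 2398 in the controls and from 2473 to 3897 with isoproterenol. The lowest of the isoproterenol sums, 2473, was that of replicate 1 on slide 1. The median change of these markers was 0.39, but 0.11 within slide 1 and -0.12 in the deposited values. Myh6 was the 1 of them past the threshold, upward, and lost the call with the slide as a block (limma adjusted p = 0.0701) and in the deposited values (adjusted p = 0.061). Of 10 fibroblast markers, 4 fell (Lum, Postn, Col3a1, Tcf21) and 1 rose (Thy1), with a median change of -0.52, and -0.84 within slide 1. Lum, Postn and Thy1 kept their calls with the slide as a block, and Col3a1 (limma adjusted p = 0.0597) and Tcf21 (adjusted p = 0.0666) lost theirs. After normexp background correction Tcf21 changed by -0.20 (adjusted p = 0.448). Their summed level ran from 153 to 162 in the controls and from 128 to 169 with isoproterenol, and none was at background on all control arrays. Gpx3, Sod3 and Selenop encode secreted proteins, and the part of the fibroblast share in their values was not tested.

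Of 6 smooth muscle markers, Acta2 and Tagln rose and Smtn fell, and the summed level ran from 84.5 to 150 in the controls and from 217 to 497 with isoproterenol. All 3 calls were lost with the slide as a block (limma adjusted p = 0.308, 0.0645 and 0.0708). Of 7 endothelial markers Kdr fell, with sums of 15.2 to 17.1 against 14.3 to 15.8. Of 6 macrophage markers Cd14 rose, with sums of 23.9 to 34.2 against 33.8 to 52.1. Of 4 erythroid markers Hbb fell, with sums of 27.2 to 32.3 against 21.4 to 39.0. Kdr kept its call with the slide as a block (limma adjusted p = 0.0252), and Cd14 (0.110) and Hbb (0.0876) lost theirs. Kdr and Hbb were each well above background on only 1 isoproterenol array, and after normexp background correction they changed by -0.05 (adjusted p = 0.891) and 0.08 (adjusted p = 0.789).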

How the data were processed

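RNA from 3 control and 3 isoproterenol cultures was labelled with Cy3 and hybridised to 1-colour Agilent arrays. Per the file headers, spot intensity was extracted with Feature Extraction 11.0.1.1, which gives a background-subtracted processed signal. The authors also deposited a table of normalized log2 values for mRNA rows. No source used here names the tool behind that normalization. Its columns were named by sample, and 0 columns belonged to no sample.

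The mRNA rows carry accessions and the scanner files carry probe numbers. The 20734 rows were paired with probes by their values on all 6 arrays. All of them matched, and all 20733 neighbouring pairs followed the order of the feature number. RefSeq on GRCr8 named 13956 of 14757 NM accessions, and 5977 Ensembl transcripts kept their identifiers.

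Control and outlier spots were left out, spots of a probe were averaged, and log2 intensity minus each array's 75th percentile was tested. A probe was kept if well above background on at least 3 of 6 arrays, which every row met. The brightest probe stood for a gene. The test was limma 3.58.1 (lmFit and eBayes) in R 4.3.3, with Benjamini-Hochberg adjustment over 20032 genes, threshold 0.05 and no covariate. It was run on simulated data with independent noise. Those data had no slide difference, brightness trend or background floor, so that run cannot show how the test fares with these. The number of arrays limits the precision.

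Genes named were all members, up to 3 called genes a list and direction with the largest changes, and Ccs, Gpx7, Gpx8, Prdx2, Prdx4, Prdx6, Srxn1, Txnip, Hmox1, Nfe2l2, Keap1 and Ppargc1a. Members and lists were chosen with earlier results of these data known. The list of sources of superoxide and hydrogen peroxide is described with the closing observations.

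Alternatives were 18 planned and 2 added after seeing the data (cyclic loess, and deposited values with the slide as a block). Normexp (offset 50) used the median signal and median background. The labels pair no control sample with an isoproterenol sample, so no pairing was used. Same-numbered samples did not deviate together, but the split between slides keeps this from deciding whether they were paired.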

Additional observations from a re-analysis of the deposited data

How the results depend on the processing

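In all, 20 alternatives were run, 6 of which leave out 1 array. Of the 10 members, 2 were called. That count was 1 after normexp background correction and after median scaling, and 0 with the slide as a block, on slide 1 alone and for the deposited values with the slide as a block. The count was 3 after quantile normalization, in the deposited values, with cyclic loess and among genes detected on all 6 arrays. In that order 13.4%, 14.5%, 16.2% and 34.5% of genes were called. Leaving out 1 array gave 0 to 5 called members. Of all mRNA genes, 3162 were called, against 1417 with the slide as a block, 1003 on slide 1 alone, 1267 for the deposited values with the slide as a block, and 308 to 10347 when 1 array was left out, the highest without isoproterenol replicate 1. The split into higher and lower was 1997 and 1165, against 1353 and 1939 when scaled over probes detected on all arrays, 704 and 713 with the slide as a block, and 2067 and 739 after normexp. The median change of all genes, 0.07, was 0.37 after normexp and -0.17 when scaled over probes detected on all arrays.

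With the replicate number as a block, 1373 genes and 0 members were called. Correlations of same-numbered deviations from the group means were 0.01, 0.05 and -0.03, so no pairing by number was seen. The isoproterenol deviations also hold the split between slides, which the controls lack, so these values cannot decide whether samples were paired.

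Some changes that had not passed the threshold turned sign, among them those of Ccs (0.59), Prdx3 (0.51) and Sod1 (0.42), and so did Selenop, which had passed it. With the slide as a block and on slide 1 alone, Sod1 was -0.039, Sod2 -0.14, Prdx3 -0.014, Prdx5 -0.29, Ccs -0.059 and Gpx7 0.14. For the deposited values with the slide as a block these were -0.19, -0.25, -0.14, -0.31, -0.20 and 0.041. With cyclic loess Sod1 was -0.047, Sod2 -0.10, Prdx5 -0.014 and Gpx4 0.035. Sod2 was -0.046 after quantile normalization and in the deposited values, and -0.025 when scaled over probes detected on all arrays, where Prdx5 was -0.14. After normexp Gpx4 was 0.10 and Selenop 0.20. After median scaling Gpx4 was 0.029, Sod3 0.061 and Nfe2l2 0.034. With 1 array left out, Gpx4 ran from -0.27 to 0.27, Sod3 from -0.13 to 0.079, Prdx5 from -0.0025 to 0.29, Gpx7 from -0.30 to 0.0066 and Nfe2l2 from -0.11 to 0.029. The cause was not tested. Over the members, 145 of the values kept direction and side of the threshold, 20 lost the threshold, 7 passed it and 28 turned sign. Where leaving out an array or a slide removes samples, fewer samples are tested, and a lone array is assumed to vary like the others. Dim rows are the least certain on slide 2, where signal over background was lowest.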

Other observations

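Of 11 genes that produce superoxide or hydrogen peroxide, 2 rose and 1 fell with isoproterenol. Over all genes 9.97% were higher and 5.82% lower. The median change of the 11 genes was 0.18 on the log2 scale, and -0.08 within slide 1. Nox1, a catalytic subunit of an NADPH oxidase, rose by 2.06 ± 0.29 (limma adjusted p = 0.00898, and 0.0199 with the slide as a block). Maoa, a mitochondrial monoamine oxidase that releases hydrogen peroxide, rose by 1.30 ± 0.24 (adjusted p = 0.0184, and 0.0751 with the slide as a block). Xdh, xanthine dehydrogenase, fell by 0.87 ± 0.18 (adjusted p = 0.0235, 0.0656 with the slide as a block, and 0.0545 after normexp background correction, where the change was -0.55).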
